A study of Bos taurus with 19 samples.

Results

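The receptors through which the follicle wall can read luteinizing hormone (LH), steroids and metabolic hormones were examined in bovine theca interna. They were LHCGR, ESR1, ESR2, PGR, NR3C1, PRLR, GHR and INSR, and every probe set that the platform annotation gives to 1 of these genes and to no other was used. This took 25 probe sets of 8 genes, out of 24127 probe sets and 9156 named genes on the Affymetrix bovine array: 11 for GHR, 5 for INSR, 3 for LHCGR, 2 for NR3C1 and 1 each for ESR1, ESR2, PGR and PRLR. Where several probe sets read 1 gene they are numbered in the order of their names. Another 2 probe sets name GHR together with a second gene and were not used.

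The theca interna came from ovarian follicles of non-pregnant Bos taurus heifers collected after slaughter, with granulosa cells scraped away and each array holding 1 follicle. No follicle was treated, and age and breed were not stated. Small healthy follicles of 3 to 5 mm were divided by the shape of the basal granulosa cells into rounded (n = 5) and columnar (n = 5), and were set beside large healthy follicles over 9 mm (n = 4) and small atretic follicles of 3 to 5 mm (n = 5), atresia being the degeneration by which most follicles are lost. The sample records name a different RNA extraction kit for the large, small healthy and atretic follicles, and a lower RNA input for labelling for the atretic ones, whereas the study's methods describe a single extraction procedure for all thecal samples. If the records hold, RNA preparation and group cannot be told apart in comparisons across these groups. By both sources rounded and columnar follicles share a procedure. Whether follicles came from separate heifers was not stated, so p-values measure the spread between follicles.

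LHCGR is the G protein-coupled receptor by which LH raises cyclic AMP in theca cells and drives androgen synthesis, which granulosa cells then turn into estrogen. ESR1, ESR2, PGR and NR3C1 are nuclear receptors for estrogens, progesterone and glucocorticoids, held by chaperones until hormone binds. PRLR and GHR signal through JAK kinases and STAT factors, and INSR is the tyrosine kinase receptor for insulin, a known amplifier of LH-driven androgen production in theca cells.

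Of the 8 receptors, 3 gave a signal over the detection threshold, which asked that 50% or more of the arrays in 1 follicle type exceed a log2 value of 3. They were INSR, with 2 probe sets, LHCGR with 1 and NR3C1 with 1. Signals are log2 values after robust multi-array averaging (RMA), given to 1 decimal. On every array the median probe set lay at 3.8 to 3.9 and the lower quartile at 2.3 to 2.4, and 16 of the 25 receptor probe sets were never over 3. The single probe sets of ESR1, ESR2, PGR and PRLR and all 11 of GHR were under the threshold in each comparison, which gives no level for those mRNAs and does not show that they were missing. Arrays of 1 group resembled each other with r = 0.970 to 0.992 (median 0.986) over all probe sets, and arrays of different groups with r = 0.948 to 0.995 (median 0.980). Rounded follicle 4 and columnar follicle 4 were the most alike (r = 0.995), with 23.2% of their values identical. Rounded follicle 2 with columnar follicle 3 (r = 0.9925) and atretic follicle 3 with columnar follicle 4 (r = 0.9921) also exceeded every pair within a group (at most 0.9918).

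**Figure D1:**
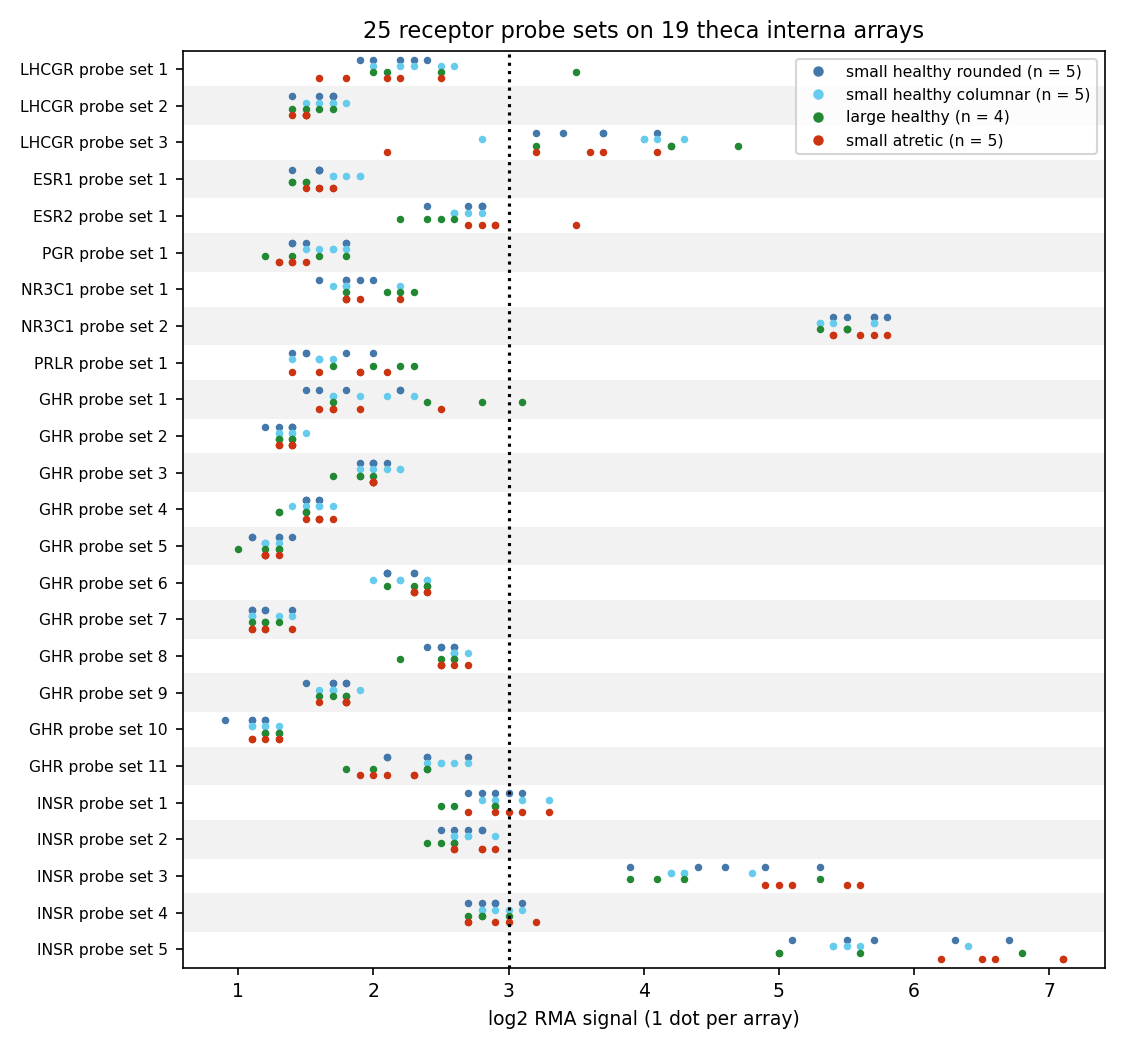
Log2 RMA signal (x axis) of each of the 25 receptor probe sets (rows, in the order of the probe set names within each gene), with 1 dot per array coloured by follicle group and a dotted line at the detection threshold of 3. LHCGR probe set 3, NR3C1 probe set 2 and INSR probe sets 3 and 5 lie over the line in most or all arrays, and the other 21 probe sets lie between 0.9 and 3.5.

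INSR was higher in theca of small atretic than of small healthy follicles, and was the only receptor of the 3 over the threshold that passed the test in any comparison. Its brighter probe set, the fifth, averaged 6.70 ± 0.39 (SD, n = 5) in atretic and 5.76 ± 0.52 (SD, n = 10) in small healthy follicles, a difference of 0.94 on the log2 scale (1.92-fold). The other over the threshold, the third and called the second below, averaged 5.22 ± 0.31 (SD, n = 5) against 4.49 ± 0.41 (SD, n = 10), a difference of 0.73 (1.66-fold). Neither reached the 2-fold change that was also asked of a call.

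The brighter INSR probe set read 6.5, 7.1, 6.6, 6.2 and 7.1 in atretic follicles 1 to 5. In small healthy follicles it read 6.7, 5.5, 6.3, 5.7 and 5.1 with rounded and 5.5, 5.4, 5.4, 6.4 and 5.6 with columnar basal cells. Atretic follicles 2 and 5 were above every small healthy follicle and 7 of 10 small healthy follicles were below every atretic one, while rounded follicles 1 and 3 and columnar follicle 4 lay within the atretic range. The second INSR probe set read 5.1, 5.6, 5.0, 4.9 and 5.5 in atretic follicles, 5.3, 4.6, 4.9, 4.4 and 3.9 in rounded and 4.3, 4.2, 4.2, 4.8 and 4.3 in columnar ones. The same atretic follicles, 2 and 5, were above all small healthy ones, and rounded follicle 1 was again the highest healthy value. Both probe sets varied together over the 19 arrays (Pearson r = 0.98), and they share a target gene, so they do not count as separate evidence.

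By limma, the difference was 0.94 with a standard error of 0.24, a 95% interval of 0.43 to 1.45 and an adjusted p of 0.0111 for the brighter probe set. It was 0.73 with a standard error of 0.19, an interval of 0.32 to 1.14 and an adjusted p of 0.0127 for the second. The exact two-sided permutation test over the 3003 ways to divide 15 follicles gave p = 0.00766 and p = 0.00666. In this comparison 31.9% of the 15470 probe sets tested passed the adjusted p threshold of 0.05, 16.9% being higher in atretic follicles and 15.1% lower, and 3.68% also reached 2-fold. Against this, 2 of the 4 receptor probe sets tested passed, both of INSR, and 0 reached 2-fold. By gene, INSR alone of the 3 receptors tested passed, a share close to that over all probe sets. Without atretic follicle 4, rounded follicle 1, rounded follicle 3 or columnar follicle 4 the brighter probe set reached 2-fold, with differences of up to 1.06. Against rounded follicles alone neither passed (0.84, adjusted p = 0.109, and 0.60, adjusted p = 0.143), and 244 of the 15203 probe sets tested did, none of the genes of the hormone pathway lists below among them. Against columnar follicles alone, also 5 against 5, both passed, as did 4933 of the 15403 probe sets tested.

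**Figure D2:**
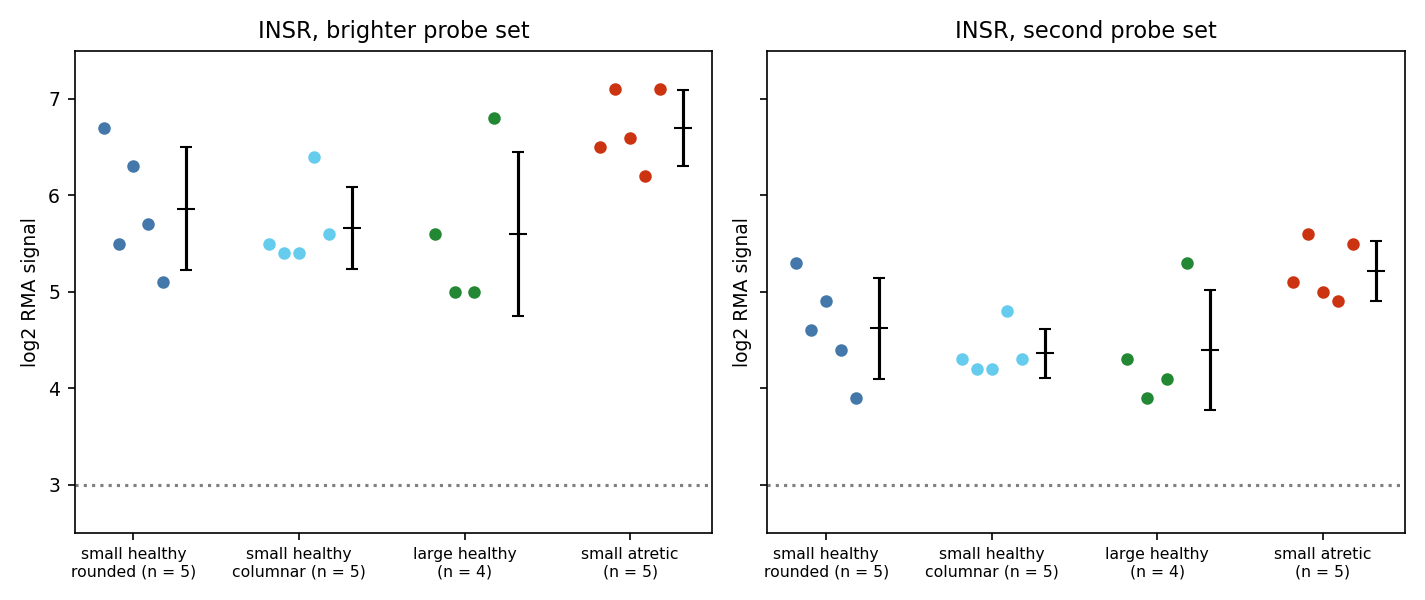
Log2 RMA signal (y axis) of the brighter and the second INSR probe set in the 4 follicle groups, with 1 dot per follicle, black bars for the mean ± SD and a dotted line at the detection threshold. The brighter probe set spans 6.2 to 7.1 in atretic and 5.1 to 6.7 in small healthy follicles, and 1 large follicle at 6.8 lies in the atretic range.

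The other 3 INSR probe sets stayed between 2.4 and 3.3 on all arrays and did not pass the filter. Their atretic and small healthy means differed by 0.00 to 0.05 on the log2 scale. Signals under the threshold give no level, so the INSR difference rests on the pair over it.

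Several other measures moved with the atretic group. In bulk tissue, a change in the share of a cell type and a change in RNA per cell cannot be told apart. All 11 of the 11 immune cell marker genes tested were higher in atretic follicles, beside 16.9% of all probe sets tested. None of these 11 kept an adjusted p under 0.05 against rounded follicles alone. The mean of the 12 on the array ran from 3.96 to 5.07 in atretic and from 2.96 to 3.88 in small healthy follicles. The brighter INSR probe set followed this immune mean with r = 0.52 over all 19 arrays, 0.17 over the 14 healthy and -0.22 over the 5 atretic ones. In the same order its r was 0.59, 0.40 and 0.86 with the mean of the hybridization control spots. With the granulosa cell marker mean it was -0.56, -0.40 and -0.15. Granulosa cell markers averaged 4.91 ± 0.60 (SD, n = 5) in atretic and 5.48 ± 0.27 (SD, n = 10) in small healthy follicles. Of the 5 genes tested 2 were lower, beside 15.1% of all probe sets tested, and neither passed against rounded follicles alone. The hybridization control spots averaged 7.85 ± 0.15 (SD, n = 5) against 7.66 ± 0.13 (SD, n = 10), and the 3′ minus 5′ difference of cyclophilin, a sign of RNA quality, 2.06 ± 0.15 (SD, n = 5) against 1.86 ± 0.15 (SD, n = 10). The same difference was 1.14 against 1.32 for actin, 0.46 against 0.45 for GAPDH and -2.26 against -2.41 for EF1A. The quality measures thus did not all move the same way. The part of these measures in the INSR difference was not tested.

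In large against small healthy follicles 0 of the 4 receptor probe sets passed the adjusted p threshold by limma, 0 had an unadjusted p under 0.05 and 0 passed with the plain F test of the study's methods. Of all 15570 probe sets tested there, 3.58% passed and 0.706% also reached 2-fold. For columnar against rounded follicles the same counts were 0 of 4 for the receptors and 0.0% over all probe sets, with 2.31% (360) at an unadjusted p under 0.05 by limma. In large follicles the brighter INSR probe set read 5.6, 5.0, 5.0 and 6.8, a mean of 5.60 ± 0.85 (SD, n = 4) that lay 0.16 under the small healthy mean (95% interval -0.86 to 0.54, limma adjusted p = 0.786). This interval overlaps that of the atretic difference (0.43 to 1.45), and large follicles were not tested against atretic ones. The second probe set read 4.3, 3.9, 4.1 and 5.3 and lay 0.09 under the small healthy mean (interval -0.63 to 0.45, adjusted p = 0.846). In both, large follicle 4 stood apart at a value like those of the atretic follicles. Columnar minus rounded differences were -0.20 (interval -0.98 to 0.58) and -0.26 (interval -0.85 to 0.33).

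Of 13 insulin signalling genes tested in atretic against small healthy follicles, 1 was higher, 1 lower and 11 did not pass, with a median difference of -0.07 beside 0.01 over all probe sets tested. TSC1, a brake on the growth kinase mTOR, was 0.70 higher, and GSK3A, a kinase that insulin switches off to allow glycogen synthesis, was 0.19 lower. With 1 follicle left out, the GSK3A difference kept an adjusted p under 0.05 only when that was atretic 1, rounded 1, rounded 3 or columnar 4. It also lost it with the replicate number as a block (adjusted p = 0.0652) and against rounded or columnar follicles alone. The alternative without the 2 arrays highest in CYP19A1 left out only columnar follicle 1 in this comparison, which holds no large follicles. It therefore repeats the run without columnar follicle 1. With that repeat counted, 12 of 27 alternatives kept the GSK3A difference. In large against small healthy follicles 1 of 15 was higher, ENPP1, a membrane pyrophosphatase known to inhibit INSR, by 0.76 with a standard error of 0.17 (limma adjusted p = 0.0293). This was lost without columnar follicle 2 or large follicle 2, 3 or 4, with an adjusted p of up to 0.0776. It was also lost with the plain F test, with all 19 arrays in the fit, without the 2 arrays highest in CYP19A1 and against rounded or columnar follicles alone, so 17 of 26 alternatives kept it.

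Other receptors of metabolic and steroid hormones were tested in the same way, 5 of them over the threshold. THRA, a thyroid hormone receptor, averaged 6.56 ± 0.15 (SD, n = 5) in atretic and 6.02 ± 0.36 (SD, n = 10) in small healthy follicles, 0.54 higher (limma adjusted p = 0.0202). IGF1R, the receptor for insulin-like growth factor 1 and the closest relative of INSR on the list, was 0.26 higher at signals near the threshold (3.16 against 2.90, adjusted p = 0.0446), and with 1 follicle left out passed only when that was rounded 1, rounded 4 or columnar 4. In all, 10 of 26 alternatives kept the IGF1R call, with the repeat of the run without columnar follicle 1 counted. Median centring was among those that lost it. PGRMC1, ADIPOR1 and ADIPOR2 did not pass, and none of the 5 passed in large follicles, where IGF1R was 0.53 above the small healthy mean (adjusted p = 0.0596).

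LHCGR was over the threshold in 17 of 19 follicles by its brightest probe set, the third, and did not pass the test in any comparison. It read 3.2, 4.2, 4.7 and 4.2 in large follicles, and 3.7, 3.6, 4.1, 3.2 and 2.1 in atretic follicles. In small healthy follicles it read 4.1, 3.7, 3.2, 3.7 and 3.4 with rounded and 4.0, 2.8, 4.0, 4.1 and 4.3 with columnar basal cells. All 4 groups overlapped, large follicle 3 was the highest and atretic follicle 5 the lowest. The order of the means was large (4.08 ± 0.63, SD, n = 4), columnar (3.84 ± 0.59, SD, n = 5), rounded (3.62 ± 0.34, SD, n = 5) and atretic (3.34 ± 0.76, SD, n = 5), and each step from 1 group to the next was smaller than the SDs beside it.

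Large minus small healthy LHCGR was 0.34 (95% interval -0.24 to 0.93, limma adjusted p = 0.453). Atretic minus small healthy was -0.39 (interval -0.998 to 0.22, adjusted p = 0.300), and columnar minus rounded was 0.22 (interval -0.42 to 0.86, adjusted p = 0.996). Single follicles moved these values. Atretic minus small healthy was -0.08 without atretic follicle 5, and large minus small healthy was 0.64 without large follicle 1 and 0.14 without large follicle 3. None passed. A dimmer LHCGR probe set that was over the threshold once, at 3.5 in large follicle 3, followed the brightest with r = 0.79 over 19 arrays, and the remaining one stayed at 1.4 to 1.8.

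**Figure D3:**
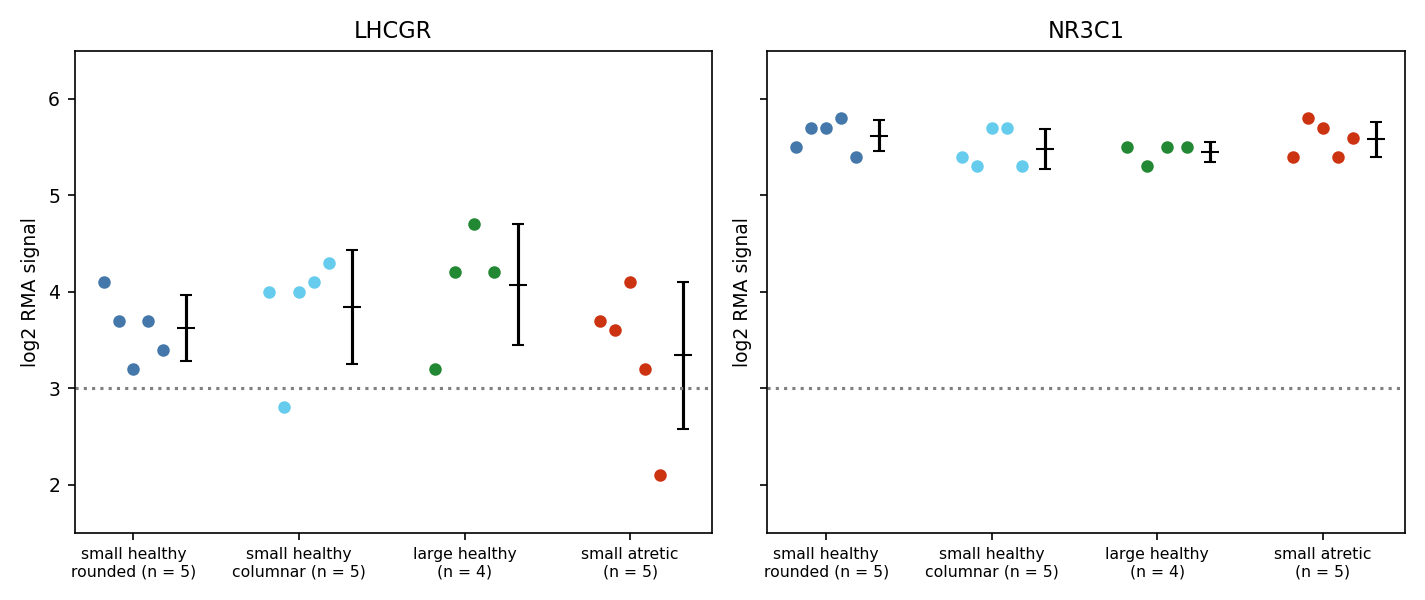
Log2 RMA signal (y axis) of the brightest LHCGR and NR3C1 probe sets in the 4 follicle groups, with 1 dot per follicle, black bars for the mean ± SD and a dotted line at the detection threshold. LHCGR runs from 2.1 to 4.7 with every group overlapping, while NR3C1 keeps to 5.3 to 5.8. Levels of different probe sets are not comparable.

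LHCGR varied with the genes of thecal steroid synthesis from follicle to follicle. Its r with the mean of 6 thecal steroidogenic markers was 0.86 over 19 arrays (Spearman rho = 0.70), 0.72 over the 14 healthy and 0.99 over the 5 atretic follicles. Without the 2 arrays farthest from the median marker level it was 0.68. Of single genes, r was 0.83 with INSL3, the thecal peptide hormone, and 0.77 with CYP17A1, the androgen-producing enzyme. These are descriptions over arrays of 4 groups that share a normalization. LHCGR also had r = 0.64 with the granulosa cell marker mean, and r = -0.77 with the 3′ minus 5′ difference of the EF1A quality probe sets. With the same difference of actin, GAPDH and cyclophilin its r was -0.002, 0.28 and -0.08. Of these RNA quality measures, EF1A alone varied closely with LHCGR, and the part of RNA quality was not tested.

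**Figure D4:**
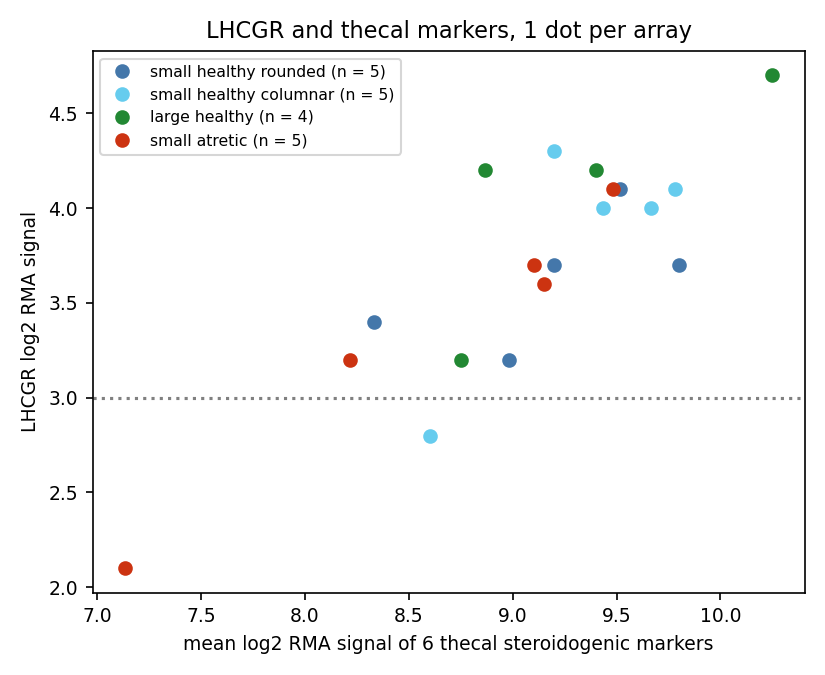
LHCGR log2 RMA signal (y axis) against the mean log2 RMA signal of 6 thecal steroidogenic marker genes (x axis), with 1 dot per array coloured by follicle group and a dotted line at the detection threshold. Higher marker means go with higher LHCGR (r = 0.86 over 19 arrays), and atretic follicle 5 is lowest on both axes at 7.13 and 2.1.

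The 6 thecal markers were bright in the tissue as labelled, their mean running from 7.13 to 10.2 over the 19 arrays. Atretic follicle 5 stood apart on both measures. Its marker mean was 7.13, beside 8.33 to 9.80 in small healthy follicles. As a group the atretic follicles averaged 8.62 ± 0.95 (SD, n = 5) on these markers against 9.25 ± 0.49 (SD, n = 10), which an exact two-sided permutation test did not separate (p = 0.103).

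Of 22 LH signalling and steroidogenesis genes tested in atretic against small healthy follicles, 0 were higher, 3 lower and 19 did not pass, with a median difference of -0.23. The number lower was 6 without atretic follicle 3, 5 without atretic follicle 2, 5 without columnar follicle 2, 6 after median centring and 0 against rounded follicles alone. It was 3 or 4 with any other follicle left out. The number higher was 1 without atretic follicle 2, 3 or 5 or rounded follicle 3. By limma, 8 of the 22 had an unadjusted p under 0.05, beside 45.2% of all probe sets tested. CYP11A1, which makes the first steroid from cholesterol, was 1.31 lower with a standard error of 0.29 (8.98 against 10.29, adjusted p = 0.00529). PRKACA, a catalytic subunit of the cyclic AMP-dependent kinase, was 0.38 lower (adjusted p = 0.00492), and GNAS, the G protein subunit that couples LHCGR to cyclic AMP, was 0.24 lower (adjusted p = 0.0111). In large follicles 0 of 21 passed by limma, 2 of them with an unadjusted p under 0.05, beside 24.4% of all probe sets tested. The smaller was that of CYB5A, a cofactor of androgen synthesis, at 0.69 above the small healthy mean (adjusted p = 0.0890).

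NR3C1, the glucocorticoid receptor, was the steadiest of the 3 over the threshold. Its bright probe set, the second, read 5.5, 5.3, 5.5 and 5.5 in large follicles and 5.4, 5.8, 5.7, 5.4 and 5.6 in atretic ones. It read 5.5, 5.7, 5.7, 5.8 and 5.4 with rounded and 5.4, 5.3, 5.7, 5.7 and 5.3 with columnar basal cells. No follicle was below 5.3 or above 5.8, and no group stood apart.

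The differences in NR3C1 were -0.10 for large minus small healthy (95% interval -0.32 to 0.12, limma adjusted p = 0.579) and -0.14 for columnar minus rounded (interval -0.38 to 0.10, adjusted p = 0.996). For atretic minus small healthy it was 0.03 (interval -0.19 to 0.25, adjusted p = 0.842). None of the 3 intervals came near 2-fold at this probe set. The other NR3C1 probe set stayed between 1.6 and 2.3.

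**Figure D5:**
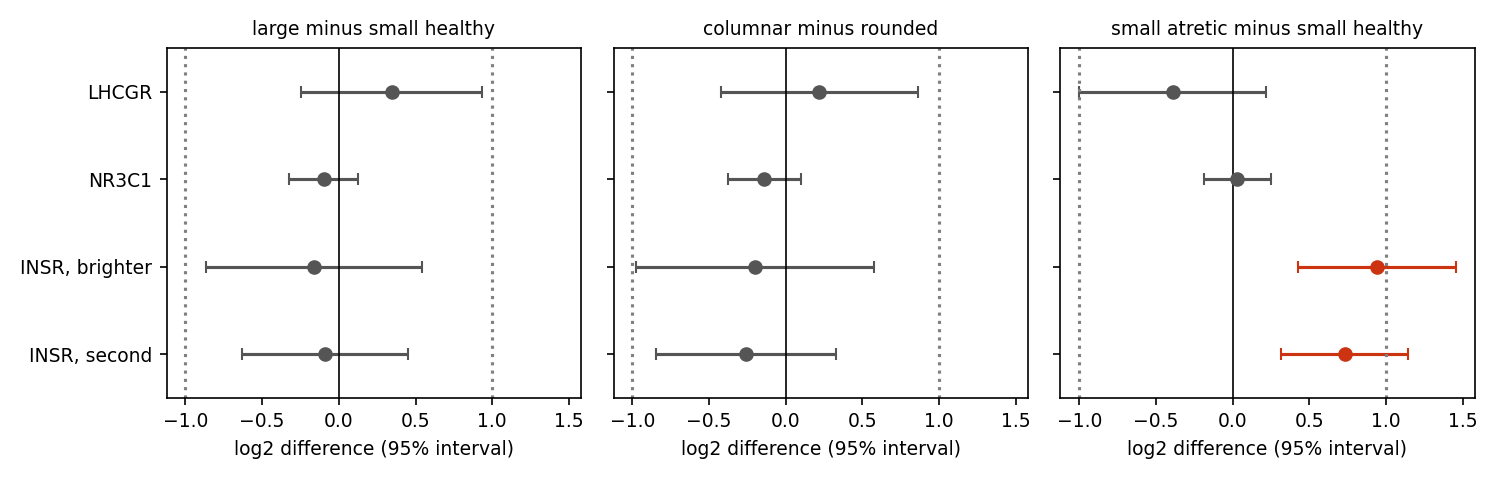
Log2 difference with its 95% interval by limma (x axis) for the 4 receptor probe sets over the threshold in the 3 comparisons, with dotted lines at 2-fold in either direction. Filled red marks the adjusted p under 0.05, reached by the 2 INSR probe sets in atretic minus small healthy follicles (0.94 and 0.73), and every other interval spans 0.

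Of 12 genes of glucocorticoid metabolism and known targets of NR3C1, 6 were higher in atretic than in small healthy follicles, 1 was lower and 5 did not pass, with a median difference of 0.41. Over all probe sets tested there, 16.9% were higher and 15.1% lower. The number of these genes higher was 3 without atretic follicle 1 and 3 without atretic follicle 5, and 5 to 7 without any other follicle. CEBPD, a transcription factor, was 1.70 higher with a standard error of 0.35 (limma adjusted p = 0.00390), and PDK4, which limits glucose oxidation, was 1.17 higher (adjusted p = 0.00300). NFKBIA, the inhibitor of NF-kappaB, was 0.91 higher. CEBPD and NFKBIA are also induced in inflammation, and the immune markers given above moved with the same group. HSD11B2, the enzyme that inactivates cortisol, was 0.43 lower at signals near the threshold (2.72 against 3.15, adjusted p = 0.00592). In large follicles 0 of 12 passed, with 4 at an unadjusted p under 0.05 by limma, beside 24.4% of all probe sets tested.

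Of 11 chaperones and coregulators of the nuclear receptors, 1 was higher in atretic follicles, 6 were lower and 4 did not pass, with a median difference of -0.38. Over all probe sets tested there, 16.9% were higher and 15.1% lower. STIP1, the co-chaperone that links HSP70 to HSP90, was 0.62 lower (limma adjusted p = 0.00432), and HSPA8, the constitutive HSP70, 0.52 lower (adjusted p = 0.00456). SMARCA4, the ATPase of a chromatin remodelling complex, was 0.54 lower (adjusted p = 0.0127). NCOA1, a coactivator of steroid receptors, was the 1 that was higher, by 0.61 (adjusted p = 0.00892). In large follicles 0 of 11 passed by limma, with 4 at an unadjusted p under 0.05, beside 24.4% of all probe sets tested. STIP1 was 0.40 below the small healthy mean there (adjusted p = 0.108).

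The estrogen and progesterone receptors were dim on every array. ESR1 read 1.4 to 1.9, PGR 1.2 to 1.8 and ESR2 2.2 to 3.5, so the values that follow lie in a range where signals were not counted as detected. For these, limma was run without the detection filter over 24016 probe sets.

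ESR1 read 1.6, 1.6, 1.4, 1.6 and 1.6 with rounded and 1.9, 1.7, 1.7, 1.9 and 1.8 with columnar basal cells. All 5 columnar follicles were above all 5 rounded ones, a difference of 0.24 on the log2 scale. This gave an exact two-sided permutation p of 0.00794, the smallest that 5 against 5 allows, but an adjusted p of 0.980 by limma. It was the only 1 of the 25 receptor probe sets whose rounded and columnar values did not overlap, which 0.396% of all 24016 probe sets did.

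ESR2 was over 3 in a single follicle, atretic follicle 4 at 3.5, the other atretic ones reading 2.9, 2.9, 2.7 and 2.8. In small healthy follicles it read 2.4 to 2.8, so 3 of 5 atretic follicles were above all of them (difference 0.28, limma adjusted p = 0.0699 without the filter). PGR averaged 1.38 ± 0.08 (SD, n = 5) in atretic and 1.62 ± 0.16 (SD, n = 10) in small healthy follicles, 0.24 lower (adjusted p = 0.0421 without the filter, beside 24.3% of all probe sets passing there). In large follicles ESR1 lay 0.23 and ESR2 0.26 below the small healthy mean. The exact two-sided permutation p was 0.0160 for each, and the limma adjusted p without the filter 0.136 and 0.117.

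Of 7 genes of estrogen and progesterone metabolism and response tested in atretic against small healthy follicles, 4 were higher, 0 lower and 3 did not pass, with a median difference of 0.40. Over all probe sets tested there, 16.9% were higher and 15.1% lower. SULT1A1, a sulfotransferase that also acts on phenols, was 1.15 higher (limma adjusted p = 0.00470), and ADAMTS1, a protease known as a progesterone receptor target in granulosa cells, was 0.88 higher (adjusted p = 0.00335). CTSD, a lysosomal protease, was 0.54 higher and HSD17B4, a peroxisomal enzyme, 0.31 higher. Of 8 tested in large follicles 0 passed, with 2 at an unadjusted p under 0.05 by limma, beside 24.4% of all probe sets tested.

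PRLR and GHR were dim as well, and both read higher in some large follicles. PRLR read 1.7, 2.2, 2.0 and 2.3 in large and 1.4 to 2.0 in small healthy follicles, so 2 of 4 large follicles were above all small healthy ones. The difference was 0.44, with an exact two-sided permutation p of 0.00699 and a limma adjusted p of 0.0594 without the filter.

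Of the 11 GHR probe sets, the first varied most. It read 1.7, 3.1, 2.8 and 2.4 in large follicles, and 1.5 to 2.3 in small healthy ones. The 3 large follicles from 2.4 up were above all small healthy follicles, 1 of them over the threshold, and the difference was 0.60 (exact two-sided permutation p = 0.0240, limma adjusted p = 0.119 without the filter). The other 10 GHR probe sets stayed between 0.9 and 2.7 and did not rise with it, their differences running from -0.29 to 0.11. In atretic follicles the eleventh GHR probe set was 0.32 lower at signals of 2.12 against 2.44 (adjusted p = 0.0410 without the filter).

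The JAK and STAT pathway that GHR and PRLR use was measured by 8 genes over the threshold. In atretic follicles 2 were higher and 6 did not pass, while 16.9% of all probe sets tested were higher. STAT3, also a mediator of cytokine signals, was 0.85 higher with a standard error of 0.18 (limma adjusted p = 0.00432), and PTPN6, a phosphatase abundant in blood cells, was 0.55 higher (adjusted p = 0.00938). In large follicles PTPN6 was the 1 of 8 that passed, at 0.56 higher (adjusted p = 0.00484), and both PTPN6 calls were lost against rounded follicles alone. The mean over the immune markers was also 0.45 higher in large follicles (exact two-sided permutation p = 0.0290), with 1 of 11 genes tested passing. That gene, AIF1, passed in only 5 of 26 alternatives. The part of the immune markers in the PTPN6 difference was not tested. SOCS2 and CISH, classical feedback genes of GH signalling, did not pass in either, SOCS2 lying 0.40 above the small healthy mean in large follicles (adjusted p = 0.0962) and 0.07 in atretic ones. IGF1, which GH induces in liver, averaged 4.38, 4.56 and 4.63 in large, atretic and small healthy follicles and did not pass.

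Other measures moved in large follicles. Smooth muscle markers averaged 7.21 ± 0.36 (SD, n = 4) against 6.68 ± 0.25 (SD, n = 10) in small healthy follicles. Of 11 genes tested 3 were higher, DES, LMOD1 and MYLK, while 3.58% of all probe sets tested passed in either direction. All 3 were lost against rounded and against columnar follicles alone. DES and LMOD1 each passed in 23 of 25 alternatives and MYLK in 11 of 26. Endothelial markers averaged 5.75 ± 0.34 (SD, n = 4) against 5.39 ± 0.15 (SD, n = 10), 0 of 10 genes passing by limma with 5 at an unadjusted p under 0.05, and immune markers were given above. The spiked poly-A control RNAs averaged 5.88 ± 0.28 (SD, n = 4) against 4.57 ± 0.22 (SD, n = 10), with all 4 large arrays above all small healthy ones. CYP19A1, the granulosa cell aromatase, read 1.9, 5.8, 3.7 and 3.3 in large follicles, so 3 of them held signal of a gene that marks granulosa cells, beside 1.8 to 3.9 in small healthy follicles. The other granulosa markers did not all move with it. FSHR averaged 2.05 in large and 2.06 in small healthy follicles. The mean over the granulosa markers was 5.81 ± 0.73 (SD, n = 4) against 5.48 ± 0.27 (SD, n = 10). Of 7 such genes tested, 1 was higher, 1 lower and 5 did not pass. AMH and NR5A2, the genes that passed, did so in 16 of 26 and 9 of 25 alternatives. Large follicle 1, where CYP19A1 read 1.9, also had the lowest signals of the 4 for PRLR and the first GHR probe set (1.7 and 1.7). The part of these measures in the PRLR and GHR differences was not tested.

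Over the 19 arrays, the 3 bright receptors did not follow each other closely, r being -0.27 between LHCGR and INSR, 0.41 between NR3C1 and INSR and -0.03 between LHCGR and NR3C1. Among 7412 named genes over the threshold, those most like INSR were DDX59, an RNA helicase (r = 0.94), RNF20, a histone ubiquitin ligase (r = 0.89), and RAPGEF1, a guanine nucleotide exchange factor (r = 0.89). Those most like LHCGR were ADIPOR2, an adiponectin receptor (r = 0.91), GSTA2, a glutathione transferase that takes part in steroid isomerization (r = 0.89), and TMEM254 (r = 0.87). For NR3C1 they were PAXX (r = 0.87), RASSF7 (r = 0.79) and DCAF8 (r = 0.79). DDX59 kept r = 0.94 with INSR over the 14 healthy arrays, so its likeness did not rest on the atretic ones. For the dim receptors the highest r was 0.90, between PGR and MRPL14, and the leading r for GHR was 0.71, with KRT3, falling to 0.46 without the 2 farthest arrays.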

How the data were processed

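RNA of theca interna from 19 follicles was measured on 19 Affymetrix bovine arrays. The deposited log2 signals were made by the authors with RMA in Partek 6.5, per the submitters' processing notes, and were rounded to 1 decimal. Whether all arrays were normalized together was not stated. Quantile normalization pulls arrays to 1 distribution, so only changes relative to other genes can be seen.

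Groups came from the sample titles. Probe sets named by several genes (86) or none (10724) were unnamed, and 13317 had 1 gene. The 111 control probe sets were left out. Probe sets that exceeded a log2 value of 3 in 50% or more of 1 follicle type's arrays were tested with limma 3.58.1 (R 4.3.3). P-values were adjusted by Benjamini-Hochberg across every probe set tested (threshold 0.05, and 2-fold for a call). Large were compared with pooled small healthy follicles in 1 fit. Rounded were compared with columnar in a separate fit that kept all healthy groups apart, large included. Atretic were compared with pooled small healthy follicles in another. Exact permutation tests were two-sided and went through every split of the arrays, by code checked against scipy 1.17.1 on fixed numbers. The filter, normalization, fit, replicate block and each follicle were varied. Scripts were tested on simulated data.

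Members and gene lists were chosen with earlier results of these data known. All member probe sets are named. Of each list, by its brightest probe set per gene, at most 4 genes with adjusted p under 0.05 and the smallest p per comparison are named, or 2 where none passed, and per receptor the 3 genes of highest r. Genes named as not passing were chosen after their values were seen. Precision is limited by the number of arrays.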

Additional observations from a re-analysis of the deposited data

Results flagged for a closer look

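Within groups of 4 or 5 follicles, 14 of 100 sets of receptor values held a follicle whose gap to its nearest neighbour took up most of the group's range, beside about 1 in 20 by chance, and with signals at 1 decimal many neighbours are tied. Of the bright probe sets, LHCGR was low in columnar follicle 2 at 2.8, the others reading 4.0 to 4.3, and NR3C1 was low in large follicle 2 at 5.3, the others all reading 5.5. Columnar follicle 4 was high in both bright INSR probe sets, at 6.4 and 4.8. ESR2 stood at 3.5 in atretic follicle 4 and at 2.4 in rounded follicle 3, where ESR1 was also lowest at 1.4. Among dim probe sets, the lesser NR3C1 one read 2.2 in columnar follicle 4 and 2.2 in atretic follicle 3, and the second LHCGR one read 1.4 in atretic follicle 1. Of the GHR probe sets, the fifth read 1.3 in columnar follicle 2 and 1.3 in atretic follicle 2, the eighth read 2.7 in columnar follicle 1, and the ninth read 1.6 in atretic follicle 1.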

How the results depend on the processing

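For atretic against small healthy follicles, the INSR probe sets kept their direction in all 27 alternatives and an adjusted p under 0.05 in 26, with differences of 0.84 to 1.06 and 0.60 to 0.86. In this comparison the alternative without the 2 arrays highest in CYP19A1 drops only columnar follicle 1, so it repeats that run and is counted again. Against rounded follicles alone 0 receptor probe sets passed, and without the detection filter 4 did, the further ones being PGR and 1 of GHR. The number reaching 2-fold was 1 against columnar follicles alone, and 0 to 1 with each follicle left out, the cause of which was not tested. With each follicle left out, 2 to 2 passed the adjusted p.

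Small differences turned sign. NR3C1 in atretic follicles was -0.012 after quantile normalization again, -0.05 after median centring and -0.04 against rounded follicles alone, and -0.025 to 0.075 with each follicle left out. Large minus small healthy INSR was 0.0111 and 0.0556 without the 2 arrays highest in CYP19A1, and 0.04 for the second probe set against columnar follicles alone. With each follicle left out these were -0.56 to 0.04 for the brighter and -0.39 to 0.0767 for the second, and columnar minus rounded was -0.39 to 0.01 for the brighter. The cause was not tested. At a detection threshold of 5 LHCGR was not tested, nor was the second INSR probe set outside the atretic comparison. Other receptor results kept their direction and side of the threshold in the alternatives run.

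Over all probe sets, 557 passed the adjusted p in large follicles, 154 to 982 with each follicle left out, 304 at a detection threshold of 5, 339 with the plain F test of the study's methods, 341 with the replicate block, 159 without the 2 arrays highest in CYP19A1, and 18 and 258 against rounded and columnar follicles alone. The counts of the hormone pathway lists moved by at most 1 with each follicle left out, except those of LH signalling and glucocorticoid genes in atretic follicles. For atretic follicles 4939 passed, 2978 to 5690 with each follicle left out, 3162 at a threshold of 5, and 244 and 4933 against rounded and columnar follicles alone.

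The replicate numbers showed no clear pairing of the samples. Deviations of same-numbered follicles had r = -0.34 to 0.57 over 27 pairs (median 0.025), 10 over 0.1. Those of differently numbered follicles had r = -0.67 to 0.51 over 108 pairs (median -0.004), 36 over 0.1. Of 54 best matches, each among 4 or 5 follicles of another group, 17 were to the same number. Whether same-numbered follicles shared an animal or a batch was not tested. With the replicate block 2 receptor probe sets passed in atretic follicles, with INSR at 0.94 (adjusted p = 0.0248) and 0.73 (adjusted p = 0.0253), and 0 in the other comparisons. Of the named pathway genes, GSK3A lost its call under the block.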
